A study of Mus musculus with 35 samples.

Results

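The lysosomal cathepsins were followed across 9 culture passages of MOSE cells, the surface epithelial cells of mouse ovaries kept in serial culture until they transform without any added agent. Members were all cDNA clones on the array whose symbol is Ctsh, Ctsb, Ctsa, Ctsc, Ctsd, Ctsk, Ctsl, Ctso, Ctss or Ctsz. This rule found 12 clones of 15254, for 7 genes of 7389 with a symbol. Ctsh has 1 clone and Ctsa has 1, Ctsb, Ctsc, Ctsd, Ctsl and Ctsz have 2 each, and Ctsk, Ctso and Ctss have none among the clones used here. Ctsh and Ctsb had been selected on values of these same arrays, namely their differences from p2, above all at p14, p18, p23 and p28. Those differences are therefore given as a description, with no test. The other 9 clones were taken by symbol alone.

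The cells came from ovaries of adult virgin C57BL/6 females and grew in supplemented DMEM with 4% FBS. No agent or allele separated the groups, so that passage number is the only labelled difference between them. RNA was taken early (p2, p5, p7 and p10) and late (p14, p18, p23 as well as p25 and p28), with 1 preparation per passage, and was hybridized against RNA of a whole newborn C57BL/6 male on 4 arrays per passage (3 at p7) in both dye orientations. The 35 arrays are thus technical replicates of 9 RNAs from 1 culture series. A p-value for a pair of passages measures the spread between arrays, and a p-value for late against early the spread between passage levels. Neither measures the spread between cultures.

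Cathepsins are proteases that are made as inactive precursors, tagged with mannose 6-phosphate in the Golgi, carried to the lysosome and switched on by its acid pH. Most of them use a cysteine in the active site, while cathepsin D uses aspartates and cathepsin A a serine. Cells can also secrete them, and outside the cell they can cut matrix proteins, which is why they have long been studied in tumours. Cystatins and related proteins bind and block the cysteine cathepsins.

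Values are log2(MOSE/reference) after print-tip loess, a correction within each array that removes trends of the ratio with spot brightness. They were then scaled so that all arrays had a like spread of ratios, and 0 means the same signal as in the newborn after these steps. A passage level averages the direct and the reverse arrays with equal weight. Arrays differed in brightness, with a median MOSE signal between 872 and 7420 and a median reference signal between 1058 and 5890, and 91.8% to 98.7% of clones lay over 1.5 times background in both channels. Arrays of a passage correlated with a median r from 0.343 at p18 to 0.704 at p5. Of the 12 cathepsin clones, 10 lay above this background on all 35 arrays and the Ctsd clone H3138H09 on 34. The second Ctsz clone did so on only 2 arrays and was marked as not found on 30, so it has no usable level and 11 clones remain for the values below. It stayed in the fits over all clones.

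All 13 measured genes of an ovarian surface and mesothelial list lay above background on at least 0.5 of the arrays, and their median level ran from 0.65 at p23 to 2.24 at p10. Late minus early, the list median was -0.80, with Wt1 (-2.20), Aldh1a1 (-1.55), Gata4 (-1.33) and Bnc1 (-1.10) called lower, and in single pairs of passages Krt8 was called higher at p14 than at p2, Msln higher at p10 than at p5 and Aldh1a2 lower at p14 than at p7. Wt1, a transcription factor of the mesothelium, stood at 5.03 at p2 and 3.17 at p28. Amhr2, listed for granulosa cells, was lower late in both clones (-1.41 and -1.90). The 8 measured fibroblast genes stayed below the newborn (median -2.30 at p7 to -1.07 at p28) with a late minus early median of 0.46. Col1a1 (1.99), Pdgfra (1.05) and the Col3a1 clone H3152D12 (0.45) were called higher and Dcn lower. The other Col3a1 clones differed by -0.12, -0.06 and -0.12. Of 4 endothelial genes Pecam1 was called higher (0.84) and Esam lower (-0.83). Of 8 erythroid genes, whose median was -3.28 to -1.38, Hba-a1 was called higher late in clone H3123A01 alone (1.63) and Hba-x and Hbb-y were called in pairs of passages. None of these late minus early calls was made without loess. Beside them, 4.03% of all clones were called late minus early, and 11.2% of all genes with a symbol in at least 1 of 17 comparisons. Scaling shrank late ratios more than early ones, and without it the 615 late minus early calls over all clones became 27. The listed clones called higher late had early levels below the newborn, and those called lower late had early levels above it. How far scaling shaped these calls was not tested. The 10 measured macrophage markers, a cell type rich in cathepsins, had a median level below the newborn at every passage, from -1.12 at p5 to -0.64 at p23. Their median ratio was 0.36 higher over p14 to p28 than over p2 to p10, with C1qa and C1qb called higher (0.38 and 0.45, adjusted p = 0.0472 and 0.0416 by limma, neither called without loess), while the Ctsh and Ctsb ratios were lower there. The limit of scaling holds for these calls too. In the MOSE channel alone, their median log2 signal minus the array median showed no such rise. It ran from -0.78 (p10) to -0.51 (p5) early and from -0.88 (p23) to -0.47 (p14) late. The part of any of these lists in the results was not tested. In bulk RNA, fewer cells of a type and less RNA per cell cannot be told apart.

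Regulatory sequence bears on the family because the palindrome CACGTG is the core of the element to which TFEB and TFE3, the factors that switch on lysosomal genes, bind. RefSeq windows of the 250 bases before a start (GRCm38.p6) were at hand for 5 of the 7 genes, Ctsa (with a pair of windows), Ctsc, Ctsd, Ctsl and Ctsz. CACGTG, which reads the same on both strands, was found at 2 places in the Ctsd window, at 1 in the Ctsl window and at 1 in the second Ctsa window, against 6.02% of 32851 such windows of all genes with at least 1 match. The Ctsl, Ctsc and second Ctsa windows overlap the annotated gene body and are not printed. The Ctsd window (7:142387828-142388077, minus strand), which holds 2 matches, and the Ctsz window (2:174439040-174439289, minus strand), which holds none, lie wholly before the gene and are shown with CACGTG in capitals.
Ctsd: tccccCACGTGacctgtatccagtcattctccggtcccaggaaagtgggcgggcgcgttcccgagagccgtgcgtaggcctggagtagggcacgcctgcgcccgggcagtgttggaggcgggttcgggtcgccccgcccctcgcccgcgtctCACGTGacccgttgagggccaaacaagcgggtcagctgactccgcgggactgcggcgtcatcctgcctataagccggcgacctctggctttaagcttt
Ctsz: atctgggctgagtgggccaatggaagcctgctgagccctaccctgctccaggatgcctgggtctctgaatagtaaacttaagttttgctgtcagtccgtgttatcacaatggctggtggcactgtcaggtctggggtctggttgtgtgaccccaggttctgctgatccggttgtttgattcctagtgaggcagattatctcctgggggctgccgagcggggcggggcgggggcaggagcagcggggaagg
The matches begin 245 and 98 bases before the Ctsd start. They are matches of letters only, and binding was not measured.

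Ctsh, an aminopeptidase and endopeptidase of the papain group, had been selected for its change from p2. With loess its levels had the widest range of the 11 clones (3.39, against 2.53 for the Ctsl clone H3028F04). Without loess they ran from -0.07 to 2.42, and those of Ctsl ran wider, from 1.02 to 3.89 (H3028F04) and from 0.82 to 3.67 (H3028F03). At p2 the Ctsh clone H3028H11 read 2.85, 2.92, 3.48 and 3.91 on the 4 arrays, a level of 3.29, or a ratio of 9.77 after loess and scaling. This ratio is not a fold of the scanned signal. On array d1, for example, the spot read 17391 over a background of 1163 in MOSE and 7057 over 1931 in the reference. At p5 the arrays read 1.72, 1.97, 2.06 and 2.16, at p7 1.08, 1.51 and 1.60, and at p10 0.37, 0.76, 1.07 and 1.20. The arrays of p2 and p5 therefore did not overlap with each other or with any later passage, whereas those of p7 and p10 did overlap. Selection of Ctsh by its differences from p2 favoured such gaps, and their share over all clones was not counted. From p14 on, all 20 arrays lay between -0.48 and 0.75, close to the newborn, with levels of 0.08 at p14 and 0.50 at p18, then of -0.10 (p23), 0.23 (p25) and -0.05 (p28). The arrays of these 5 passages overlapped. The difference from p2 was thus -1.31 at p5, -2.44 at p10, -3.21 at p14 and -3.34 at p28, and most of it was in place by p10. Passages p2 and p18 share an array series, meaning slides of like name, for all arrays of p2 and 3 of p18, and within it the p18 difference was -2.97. No other passage has an array in the p2 series, and all p28 arrays lie in a series of their own. Against p2, passage and series therefore cannot be told apart directly at any passage but p18, here or in the comparisons below. A fit with the series as a block parts them at p7, p10, p14, p23 and p25 only through single arrays of p18 and p25. At p5 and p28 it cannot part them.

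Ctsb, the cysteine protease best known for its secretion by tumour cells, was read by clones that did not tell the same story. The bright clone H3030E10 read 0.94, 1.54, 2.05 and 2.25 at p2, a level of 1.69, followed by 1.05 at p5, 1.49 at p7 and 0.96 at p10. Its late levels were lower, with 0.47 at p14, 0.23 at p18 and between 0.09 and 0.21 in the last passages. Its arrays of p2 to p10 ran from 0.77 to 2.25 and its 20 arrays of p14 to p28 from -0.11 to 0.57. Selection of Ctsb by its differences from p2 favoured this gap, and the share of all clones with such a gap was not counted. The dim clone H3053G10, with a median MOSE signal of 1865 over a local background of 664, stayed between -0.35 at p28 and 0.19 at p7. The signal of H3030E10 had a median of 22827. The files do not say which part of the transcript each clone holds, and which of them follows the gene was not tested.

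**Figure D1:**
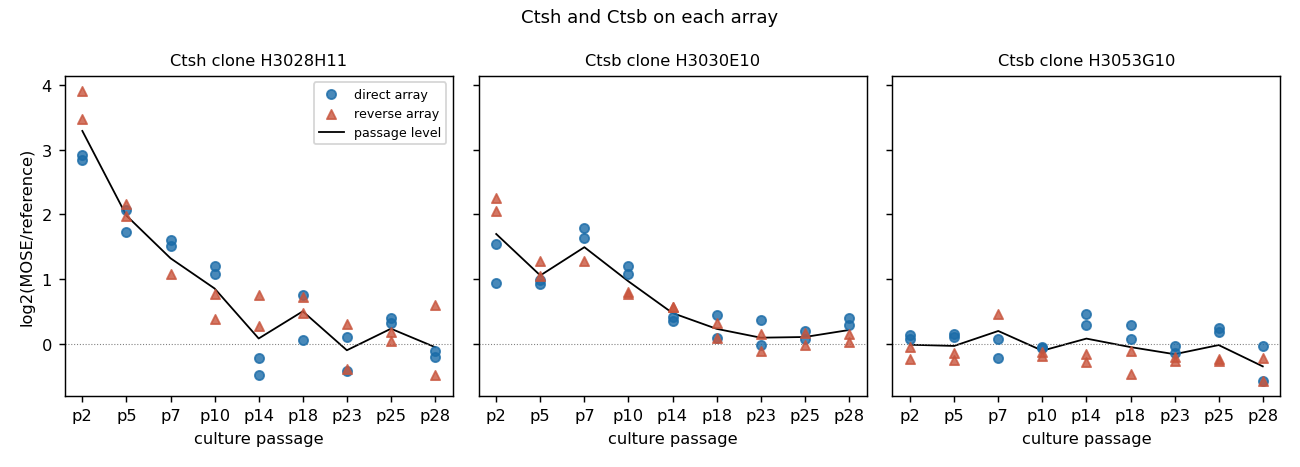
Ratio of MOSE to reference signal (log2, vertical axis) at each culture passage (horizontal axis) for the Ctsh clone and both Ctsb clones, with circles for direct arrays, triangles for reverse arrays and a line through the passage levels. Ctsh goes from 3.29 at p2 to -0.05 at p28 and the bright Ctsb clone from 1.69 to 0.21, while the dim Ctsb clone stays near 0.

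The channels were then looked at apart, each as log2 signal minus the array median of that channel (mean ± SD over arrays). The Ctsh signal in MOSE was 2.92 ± 0.168 (n = 4) at p2, 2.35 ± 0.417 at p5, 1.72 ± 0.376 at p10, 0.38 ± 0.395 at p14 and 0.47 ± 0.494 at p28, so that it fell with its ratio up to p14. Later it stood at 1.12 ± 0.245 at p23 and 1.31 ± 0.582 at p25, above p14. In the common reference the same spot went from 0.99 ± 0.155 at p2 to 0.23 ± 0.403 at p28, so that the reference channel moved in the same direction by less. The MOSE signal of the bright Ctsb clone had another order than its ratio: it was 3.68 ± 0.392 at p2, highest at p10 with 4.74 ± 0.377, lowest at p18 with 3.17 ± 0.396, and 3.99 ± 0.148 at p28. Its reference signal was 3.53 ± 0.178 at p2 and 3.53 ± 0.156 at p28.

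**Figure D2:**
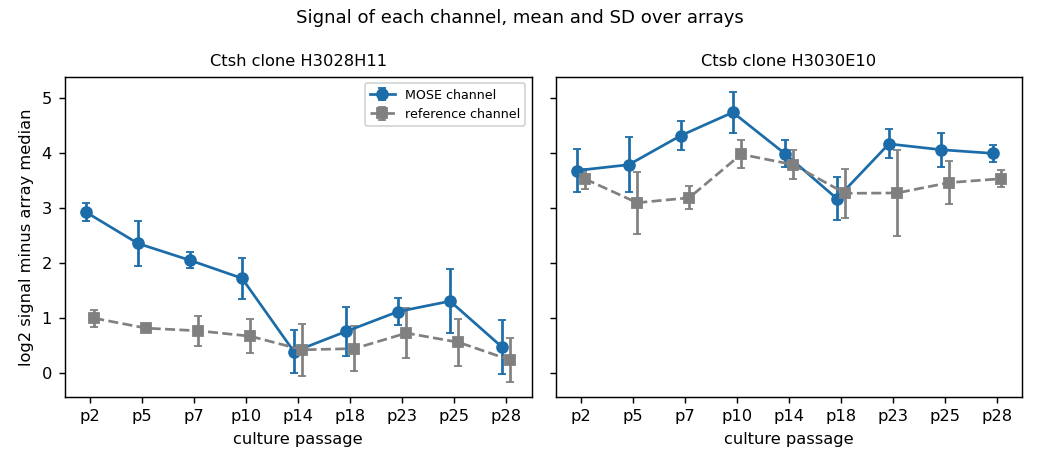
Background-subtracted signal of the Ctsh clone and the bright Ctsb clone in each channel (log2, minus the median of all spots of the channel on that array), as mean and SD over the arrays of a passage. The Ctsh signal of MOSE cells drops from 2.92 at p2 to 0.38 at p14, whereas the Ctsb signal is 3.68 at p2 and 3.99 at p28.

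The Ctsb course therefore depended on the loess step, and the levels were recomputed with each array only centred on its median (a choice made after the channel signals were seen). Without loess the bright Ctsb clone stood at 0.22 at p2, 0.74 at p5, 1.46 at p7 and 0.77 at p10. Its late levels then ran from -0.08 (p18) to 0.57 (p25). Its difference from p2 then turned to 0.36 at p25 and 0.12 at p28, from -1.59 and -1.49 with loess. Ctsh kept its course without loess at a smaller size, with 2.42 at p2, 1.71 at p5, 1.69 at p7, 1.08 at p10 and between -0.07 and 0.68 from p14 on, a difference from p2 of -2.49 at p14 and -2.35 at p28.

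**Figure D3:**
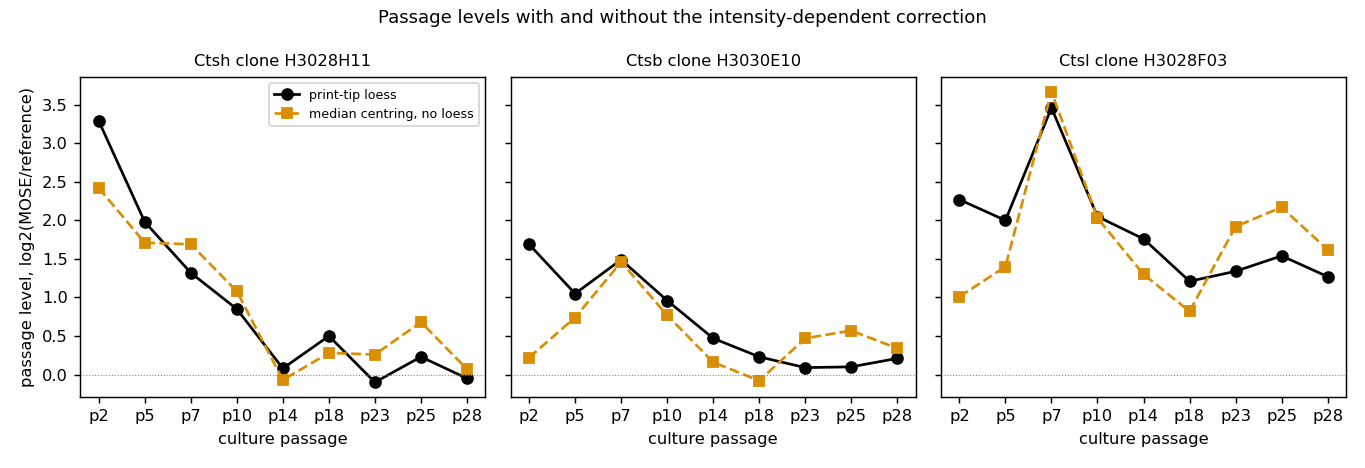
Passage levels (log2 ratio of MOSE to reference, vertical axis) of the Ctsh, bright Ctsb and a Ctsl clone over the culture passages (horizontal axis), with print-tip loess (filled line) and with median centring alone (dashed line). At p2 the settings give 3.29 and 2.42 for Ctsh, 1.69 and 0.22 for Ctsb, and 2.27 and 1.01 for Ctsl, while at p7 they lie close together for Ctsb and Ctsl.

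Ctsh and Ctsb were then compared among p5, p7, p10 and p25, which leaves out p2 and the passages that mainly selected them. As p25 lies between p23 and p28 of the same culture, the selection still favoured a low p25 level. The comparisons with p25 are therefore not independent of it. Between p25 and p5, Ctsh was lower by a log2 difference of -1.75 (SE 0.144, 0.298 times the p5 ratio, adjusted p = 0.000904 by limma), and the bright Ctsb clone by -0.95 (SE 0.128, 0.517 times, adjusted p = 0.00766). Both passed the study's threshold of 0.01, so that 2 of the 12 clones were called, beside 84 of all clones (0.551%). Both belong to the selected genes, so these shares cannot be weighed against each other. All p5 arrays lie in an array series of their own, so that p5 and its series cannot be told apart here or in the other comparisons with p5, and 8.15% to 20.1% of their spots were not found, against 0.944% to 2.47% on the other arrays. The Ctsh call held without any 1 of the 8 arrays (adjusted p from 0.00187 to 0.00598), while the Ctsb call was lost without each of them (from 0.019 to 0.0346). The dim Ctsb clone differed by 0.01 (SE 0.17, adjusted p = 0.979). With median centring in place of loess neither call held: Ctsh differed by -1.03 (adjusted p = 0.0527) and Ctsb by -0.17 (adjusted p = 0.696), and the split of all calls went from 38 higher and 46 lower to 57 and 7. With loess over the whole array in place of print-tip blocks Ctsh missed the threshold as well (-1.22, adjusted p = 0.0554).

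Between p25 and p7 the differences were -1.09 for Ctsh (SE 0.18, adjusted p = 0.0449) and -1.39 for the bright Ctsb clone (SE 0.167, adjusted p = 0.0236). Neither was called, nor was any other cathepsin, beside a background of 0.0328%. These passages share an array series except for 1 array of p25, and within the series the values were -1.05 and -1.34. There the adjusted p was 0.126 for Ctsh and 0.0785 for Ctsb. A fit of all 35 arrays called the Ctsb difference without a term for the series (adjusted p = 0.000155) and with it as a block (-1.35, adjusted p = 0.00551). Without the array r1 of p7 the Ctsb difference was -1.60 and called (adjusted p = 0.00678). Between p25 and p10 the differences were -0.62 (adjusted p = 0.178) and -0.86 (adjusted p = 0.0265), with no cathepsin called and a background of 0.0852%. Between p10 and p5 Ctsh differed by -1.13 (SE 0.19, adjusted p = 0.0261), again with no cathepsin called, against 0.479% of all clones. No clone of the array was called between p7 and p5 or between p10 and p7 (0% in each), although 1638 and 1125 clones, with 7 and 5 cathepsins, had an unadjusted p under 0.05 in limma.

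Ctsl, the most widely expressed cysteine cathepsin and a strong endopeptidase, had a course of its own with a maximum at p7. Clone H3028F04 read 3.07, 3.93 and 4.26 at p7, while its other 32 arrays lay between 0.40 and 2.37. Clone H3028F03 read 3.03, 3.86 and 3.92 at p7 and between 0.80 and 2.70 elsewhere. All p7 arrays therefore stood above every array of every other passage, in both clones. The share of all clones with such an order was not counted, and p7, with only 3 arrays, was singled out because the maximum lay there. The levels at p7 were 3.58 and 3.46, or ratios of 11.97 and 11.04 after loess and scaling, against 1.77 and 2.00 at p5 and 1.99 and 2.05 at p10. The lowest levels were 1.05 for H3028F04 at p23 and 1.21 for H3028F03 at p18, so Ctsl stayed above the newborn throughout. On the direct arrays of p7 the signal of H3028F04 was 62324 and 61462, near the top of the scanner's range, as was 1 array of p23 with 65339. The p7 maximum was also present without loess, at 3.89 and 3.67.

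The difference from p5 to p7 was 1.81 (SE 0.277, adjusted p = 0.0653) and 1.47 (SE 0.252, adjusted p = 0.0855) in the Ctsl clones H3028F04 and H3028F03, short of the threshold in a comparison without any call. The values from p7 to p10 were -1.59 and -1.42 (adjusted p = 0.0905 and 0.0804). From p7 to p25 they were -1.87 and -1.93 (adjusted p = 0.034 and 0.0332). Within the array series they were -1.78 and -1.82 (adjusted p = 0.12 and 0.108), while the fit of all 35 arrays called both Ctsl clones without (adjusted p = 0.000282 and 1.26e-05) and with the series as a block (0.00375 and 0.000693). Against p2, the lowest adjusted p of both clones came at p28, with differences of -0.846 and -1.004 (adjusted p = 0.0163 and 0.0164), values that turned to 0.54 and 0.62 without loess.

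Ctsc, an aminopeptidase that activates the granule proteases of immune cells, was at its lowest where Ctsl was at its highest. Clone H3055G02 read -1.97, -1.25 and -1.15 at p7 and J0035E11 read -1.25, -0.92 and -0.83. At p14, in contrast, they read between 0.03 and 0.14 and between 0.01 and 0.14. Levels at the other passages ran from -0.84 to 0.02 and from -0.79 to -0.05. Over the 9 passage levels H3055G02 correlated with the Ctsl clone H3028F03 at r = -0.815 and J0035E11 at -0.718. These are descriptions over points that come from the same arrays.

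As p7, p14 and p23 share 1 array series, p14 and p23 were set against p7 for the 9 clones chosen by symbol, a comparison added after values were seen. From p7 to p14, Ctsc rose by 1.67 (SE 0.214, adjusted p = 0.00769) and 1.12 (SE 0.149, adjusted p = 0.00842), and the Ctsl clone H3028F03 fell by 1.70 (SE 0.233, adjusted p = 0.00948). The other Ctsl clone differed by -1.88 (SE 0.271, adjusted p = 0.0114). With 3 of the 9 clones called, the background was 0.774%, or 56 clones higher and 62 lower. Both Ctsc clones had their lowest level at p7 and their highest at p14, and both Ctsl clones their highest at p7. The comparison thus set extremes of these clones against each other, which favoured calls. Its share cannot be weighed against that of all clones. These calls lay close to the threshold: over fits that each left out 1 of the 7 arrays, the adjusted p ran from 0.00481 to 0.0278 and from 0.0146 to 0.0475 for Ctsc and from 0.00162 to 0.0367 for Ctsl. Without scale normalization none of the 3 passed, with 1.505 and 0.994 for Ctsc (adjusted p = 0.0304 and 0.0313) and -0.998 for Ctsl (adjusted p = 0.0339). Without loess the Ctsl differences were -2.37 and -2.46 (adjusted p = 0.00436 and 0.00787), those of Ctsc 1.86 and 1.11 (adjusted p = 0.0105 and 0.0397), and all calls split into 25 higher and 102 lower. From p7 to p23 none was called (background 0.184%), although all 8 clones with a usable level had an unadjusted p under 0.05. Ctsl differed there by -2.53 and -2.12 (adjusted p = 0.0205 and 0.0133) and Ctsc by 1.29 and 0.62 (adjusted p = 0.0527 and 0.17).

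**Figure D4:**
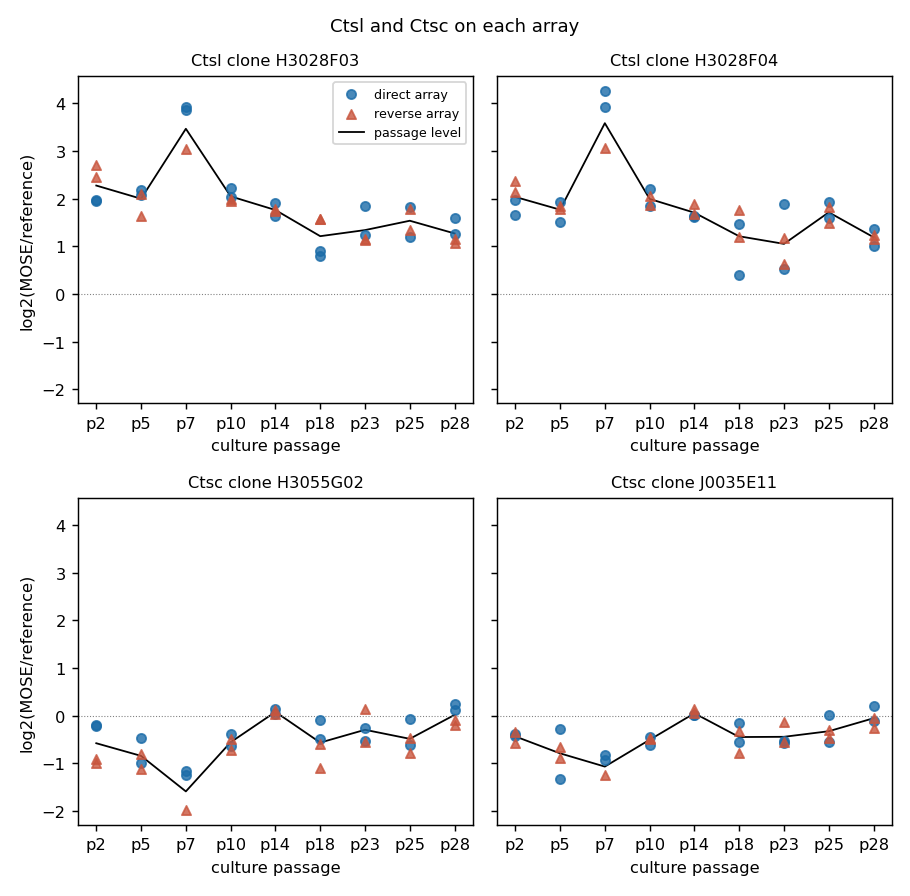
Ratio of MOSE to reference signal (log2, vertical axis) on every array by culture passage (horizontal axis) for the clones of Ctsl and Ctsc, with circles for direct arrays, triangles for reverse arrays and a line through the passage levels. At p7 both Ctsl clones peak at 3.46 and 3.58 and both Ctsc clones are lowest at -1.59 and -1.06.

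Ctsa, the protective protein that holds β-galactosidase and neuraminidase together in the lysosome, also had its highest level at p7, where it read 0.20, 0.65 and 0.96. Its lowest level was -0.65 at p28. The p7 to p25 difference of -1.02 was not called (adjusted p = 0.102). Ctsd, the main aspartic protease of the lysosome, was read by a pair of clones that parted at p7, with levels of 1.16 for H3138H10 (arrays at 0.34, 0.69 and 1.80) and 0.51 for H3138H09. From p5 to p7 their differences were 1.10 and -0.09, and neither was called. Without the p7 array r1, where the reference signal of H3138H10 was only 946 over a background of 354, its difference was 0.46. Ctsz, a carboxypeptidase also known as cathepsin X, moved little, from 0.37 at p7 to -0.41 at p28 in clone H3017E04. None of the 9 clones chosen by symbol was called against p2 at any passage in limma. Of the 8 with a usable level, 6 had an unadjusted p under 0.05 at p7, 5 at p28 and between 0 and 3 at the other passages. The background in these comparisons was 0.315% at p5, 0.0262% at p7 and 0.262% at p10. Late in culture it was 1.34% for both p14 and p23, 0.223% for p18, 1.02% for p25 and 2.98% for p28.

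With 1 value per passage, the 5 late passages (p14 to p28) were compared with the 4 early ones (p2 to p10). All late levels lay below all early levels for 5 of the 12 clones, which were Ctsh, the bright Ctsb clone, both Ctsl clones and the Ctsd clone H3138H09, against 4.84% of all clones. Without loess only Ctsh of these 5 kept that order, which 2.56% of all clones then had. Before scaling, the median absolute log2 ratio was 0.208 to 0.228 at early passages and 0.256 to 0.418 at late ones, so that scaling shrank late ratios more. The order was not counted without scaling. Late against early, the 615 calls over all clones became 27 without scaling and 4 with scaling within passages. For no cathepsin clone did all late levels lie above, against 4.2%. The 2 selected clones among the 5 were in part chosen for this order. Late minus early was -1.73 for Ctsh and -1.08 for Ctsb, with -1.48 and -0.51 without loess. Among the clones chosen by symbol, 1 of 9 was called at an adjusted p under 0.05, beside 4.03% of all clones: Ctsd H3138H09, from an early mean of 0.48 to a late mean of -0.09, a difference of -0.57 (SE 0.111, adjusted p = 0.0219). The other Ctsd clone differed by -0.38 (adjusted p = 0.36). Without p5, p7 or p28 the difference was -0.53, -0.56 or -0.56 but missed the threshold (adjusted p = 0.0558, 0.0707 and 0.0618), and without loess it was -0.31 (adjusted p = 0.416). The Ctsl clones differed by -0.97 and -1.02 (adjusted p = 0.142 and 0.0704), by -0.56 and -0.68 without p7 and by -0.54 and -0.46 without loess. The Ctsc clones differed by 0.64 and 0.46 (adjusted p = 0.143 and 0.14).

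**Figure D5:**
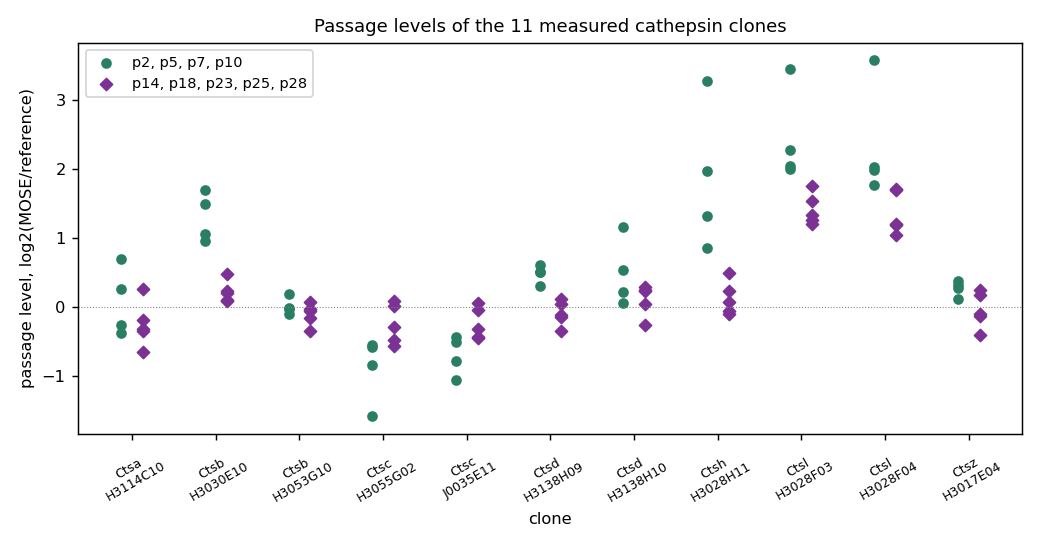
Passage levels (log2 ratio of MOSE to reference, vertical axis) of the 11 measured cathepsin clones (horizontal axis), with circles for p2 to p10 and diamonds for p14 to p28. Circles and diamonds do not overlap for Ctsh, the bright Ctsb clone, Ctsd H3138H09 and both Ctsl clones, while those of the other clones overlap.

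Of the inhibitors of cysteine cathepsins, 6 of 26 listed genes were measured, and 4 were called in at least 1 of 17 comparisons. Of all clones 7.98% were called in at least 1 of these comparisons, and of all genes with a symbol 11.2%. Cst3 (cystatin C), the main secreted inhibitor, stood at 1.30 at p2, 0.12 at p14 and -0.41 at p28. It was called lower than p2 at 5 passages, by -1.17 at p14 (SE 0.158, adjusted p = 0.0053) and by -1.71 at p28 (SE 0.179, adjusted p = 0.000986), and late minus early by -1.03 (adjusted p = 0.0166). As for Ctsb, these values were smaller and not called without loess, at -0.59 (adjusted p = 0.205) for p14, -0.60 (adjusted p = 0.238) for p28 and -0.67 (adjusted p = 0.161) for late minus early. Ctla2a and Ctla2b, which resemble the propeptide of cathepsin L and inhibit that enzyme, stood at -1.99 and -0.74 at p7 and at -0.25 and 0.42 at p14. They rose from p7 to p14 by 1.74 (SE 0.171, adjusted p = 0.00285) and 1.17 (SE 0.13, adjusted p = 0.00415). Without loess they differed by 1.99 and 1.24 (adjusted p = 0.0103 and 0.0258). Their sequences are alike, and signal of one on the clone of the other was not tested. Stfa1, a stefin, was higher late than early by 1.31 (adjusted p = 0.0151, and 0.0858 without loess), from levels far below the newborn (-3.96 at p2 and -2.49 at p28). The median difference of the inhibitors was 0.21 at p14 and 0.46 at p28 against p2, where the median of all clones was 0.00 and -0.01.

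Of 20 other lysosomal peptidases 6 were measured, and 1 was called in any of these 17 comparisons (11.2% of all genes), namely Tpp1, a tripeptidyl peptidase, at p14 against p2 (-0.98, SE 0.149, adjusted p = 0.00882, and -0.51 without loess). The list median was 0.08 at p14 and -0.37 at p28. Of 17 genes of mannose 6-phosphate sorting 14 were measured and 3 called in any comparison. Among them, M6pr, the cation-dependent receptor that brings cathepsins to the lysosome, was lower late than early in clone H3020H10 (-0.51, adjusted p = 0.0185, and 0.651 without loess). Its other clones differed by 0.04 and 0.05. Igf2r, the cation-independent receptor, was higher in clone H3148G08 (0.90, adjusted p = 0.046, and 0.177 without loess), from -2.20 at p2 to -0.76 at p28, while clone H3149A09 differed by 0.05. Vps26a, a retromer subunit that returns the receptors to the Golgi, was lower at p28 than at p2 (-0.90, adjusted p = 0.0093, and -0.14 without loess). None of the 7 measured regulators of lysosomal genes was called in the 17 comparisons of limma, where between 0 and 3 of them had an unadjusted p under 0.05. Tfeb stayed between 0.04 and 0.30. The clones with the largest p14 values were Mtor (-0.50) and Tfe3 H3151A01 (0.46).

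The clones with the course most like Ctsh, by Pearson's r over the 9 passage levels, were Sorbs2 (0.968), Icmt (0.963), Jade1 (0.963), Rbms1 (0.963) and Anapc16 (0.955). Jade1 went from 2.61 at p2 to 0.18 at p28, and Sorbs2 from 1.64 to -0.15. The clones most like the mean of both Ctsb clones were Scamp1 (0.976), Shroom3 (0.963), Clip1 (0.961), Mcc (0.958) and Nfe2l2 (0.958). Shroom3 went from 3.00 at p2 to 1.10 at p28 and Nfe2l2 from 2.08 to 0.76. These were the highest of all clones with a symbol and carry no test. Among the cathepsins, the bright Ctsb clone followed the Ctsd clone H3138H09 (r = 0.905) and Ctsh (0.882) most closely, and Ctsh followed Ctsl less (0.541 and 0.435). All these r were computed on levels with loess, on which the Ctsb course depended, and not on levels without it.

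On chromosome 9 (90054267 to 90076095 in GRCm38.p6), the measured genes next to Ctsh were Syncrip, Zfp949 and Trim43a on one side, with p14 minus p2 between -0.11 and -0.04, and Morf4l1, Tbc1d2b and Dipk2a on the other. Morf4l1, which starts 37 kb from Ctsh, differed by -0.77, Tbc1d2b at 148 kb by -3.22, and Dipk2a at 4464 kb by -0.64. Beside Ctsb on chromosome 14 (63122462 to 63145923), Trim13, Rnaseh2b and Ints6 differed by -0.42, 0.18 and -0.25, Fdft1 at 23 kb by 1.01, Gata4 at 76 kb by -1.16 and Mtmr9 by -0.27. The pair of genes nearest to Ctsh thus had lower values at p14, as Ctsh had, and the pair nearest to Ctsb differed in direction. Position was not tested.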

How the data were processed

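Total RNA of MOSE cells and of the newborn reference was labelled with Cy3 or Cy5 and hybridized to NIA mouse cDNA arrays in direct and reversed dye orientation. The deposited scanner files hold spot and local background intensity per channel, which the authors measured with GenePix Pro and which are not normalized. The series value table holds log2 ratios that the authors normalized (print-tip loess and scaling between slides, per the methods). Of its 15023 rows, 14758 could be matched to a clone by their values, and it served as an alternative.

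Background was subtracted with a floor of 0.5, ratios were corrected by print-tip loess (32 blocks, empty and control spots at weight 0), scaled over all 35 arrays and turned to MOSE over reference in limma 3.58.1 (R 4.3.3). Each pair of passages was fitted alone with limma, with p7 weights of 0.667 and 1.33 that balance the orientations, and p-values were adjusted by Benjamini-Hochberg over 15254 clones (threshold 0.01). Late against early used 1 value per passage (threshold 0.05). The fits were tested on simulated data. Array labels did not pair the samples across passages. No comparison columns of the authors and 0 columns without a sample were present.

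The members and lists were chosen with earlier results of these data known. Named were all cathepsin clones, every called gene of the lists (or the 2 largest at p14), the 5 clones most like Ctsh and Ctsb, and 3 measured genes on either side. Symbols were updated through RefSeq tables (GRCm38.p6), which gave 10098 clones a symbol. Alternatives changed background, loess, scaling, filter, weights, dye and series terms and the arrays used. The number of arrays limits the precision.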

Additional observations from a re-analysis of the deposited data

Results flagged for a closer look

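Of 88 groups of 4 arrays tested for a single array far from the other 3, 2 stood out, and chance alone marks about 1 in 20 such groups. Both lie at p23. The Ctsc clone J0035E11 read -0.12 on the reverse array r1, against -0.58 to -0.52 on the others (gap over range 0.869). The Ctsl clone H3028F03 read 1.84 on the direct array d2, against 1.14 to 1.23 on the others (gap over range 0.868). The same array gave the brightest Ctsl spot of the series.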

How the results depend on the processing

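For 79 cathepsin results, 780 of 945 values under other processing kept their direction and their side of the threshold or moved by less than the spread between arrays, 45 passed the threshold anew, 28 lost it, 55 moved and 37 turned. Of 920 values with an array or passage left out, 873 were kept so, 9 passed anew, 30 lost the threshold, 1 moved and 7 turned. The cause was not tested for any of them.

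Median centring without loess, chosen after the data were seen, gave Ctsb -0.506 late minus early, -0.169 from p5 to p25 and 0.027 from p5 to p10, and Ctsh -1.028 from p5 to p25. Against p2 it turned Ctsb to 0.525 (p5), 1.246 (p7), 0.552 (p10), 0.255 (p23), 0.356 (p25) and 0.122 (p28). It turned Ctsl H3028F03 to 0.288 (p14), 0.915 (p23) and 0.617 (p28), and H3028F04 to 0.407, 0.66 and 0.535. At p28 it turned Ctsa to 0.32 and Ctsz to 0.225, and for Ctsd H3138H09 it gave 0.29 at p23 and 0.27 from p5 to p7.

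From p5 to p25, Ctsb missed the threshold with global loess (-1.02), no background subtraction (-0.787), normexp (-1.051) and scaling within passages (-0.824), and ran from -1.01 to -0.894 with arrays left out. Ctsh missed it with global loess (-1.215). Ctsb passed it from p10 to p25 in the fit of all 35 arrays (-0.86) and without background subtraction (-0.982). From p7 to p25 it passed in the fit of all arrays (-1.389) and with the series block (-1.346), and ran from -1.604 to -1.342 with arrays left out. Its late minus early value was -0.818 without scaling. Its p7 minus p2 value turned to 0.081 (global loess) and 0.018 (normexp) and ran from -0.354 to 0.011 with arrays left out, and p10 minus p5 was 0.196 without background subtraction.

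Against p2, Ctsl H3028F03 turned at p14 and p23 without scaling (0.157 and 0.263) and with scaling within passages (0.127 and 0.284), and at p23 in the authors' table (0.203). H3028F04 turned at p14 without scaling (0.262), within passages (0.254), in the table (0.087) and with the series block (0.455), and at p23 within passages (0.023). The series block also gave Ctsc J0035E11 -0.113 at p14 and Ctsd H3138H09 0.616 at p23. Ctsd H3138H09 from p5 to p7 was 0.074 (global loess) and 0.086 (no background subtraction) and ran from -0.325 to 0.137 with arrays left out. Ctsd H3138H10 at p23 was -0.045 without background subtraction and ran from -0.165 to 0.221 with arrays left out.

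Arrays with the same label also share a dye orientation. Their deviations from the passage mean correlated weakly, with a median r between 0.0832 and 0.118 (lowest -0.0992). With that label as a replicate block, Ctsb from p5 to p25 was -0.952 (adjusted p = 0.0292, limma) and p7 minus p2 was 0.053, Ctsd H3138H09 from p5 to p7 was 0.104, and the 3 calls of Ctsc and Ctsl from p7 to p14 were lost (adjusted p from 0.0347 to 0.0532).

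Counts of called clones moved too. From p5 to p25 the 84 calls became 23 (global loess), 50 (scaling within passages), 145 (normexp) and 179 (no background subtraction). From p7 to p14 the 118 became 62, 54, 201 and 202. Late against early, the 615 became 237, 4, 940 and 826, with 27 without scaling, 83 in the table and 31 without loess.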
